A study of Mus with 51 samples.

Results

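The comparison described here asks what the self-peptide GP added to a response to the agonist peptide MCC in mouse CD4 T cells that had stayed in the CD69-low fraction. Its members are 11 of the 51 RNA-seq libraries of the series, chosen by their labels. The 6 MCC+GP CD69-lo libraries (3 at 1 h and 3 at 6 h) were compared with the 5 MCC CD69-lo libraries (3 at 1 h and 2 at 6 h). Libraries of 24 h were left out because the 3 MCC+GP CD69-lo libraries of that time held 29030 to 301455 counts.

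All groups came from lymph node T cells of 5C.C7 TCR transgenic mice, with the strain given as B10.A-Rag2tm1FwaH2-T18aTg (Tcra5CC7,Tcrb5CC7)lwep. Every T cell of these mice carries the same receptor, which recognises MCC, a moth cytochrome c peptide, and the mice lack Rag2, so that controls and treated cells share both. Cells received no peptide (NP), GP alone, MCC alone or MCC with GP, and the last 2 of these were sorted by surface CD69 into high and low fractions, written CD69-hi and CD69-lo. The age of the mice, the peptide doses and the cells that presented the peptides were not given in the sources used here. The labels do not say that replicates came from separate animals or cultures, so the p-values cover the spread between libraries, which may be technical.

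T cells read peptides bound to MHC class II molecules through the T cell receptor (TCR). Self-peptides bind the receptor too weakly to activate a mature cell alone, but they keep up a low level of proximal signalling and can contribute when an agonist peptide is present. Receptor triggering switches on immediate-early transcription factors such as the NR4A and EGR families through calcium, ERK and NF-kB signalling. CD69, a lectin-like receptor that holds activated cells in the lymph node, appears on the surface soon afterwards, while genes of the resting state such as Klf2 are shut down.

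The 11 libraries held 3169914 to 6285828 counts. Expression is given as normalized CPM, which are counts scaled to a common library total with a TMM factor for composition. Two-sided quasi-likelihood tests of edgeR were fitted to all 51 libraries, and p-values were adjusted by Benjamini and Hochberg over all 17211 genes tested. In pooled RNA, more responding cells and more RNA per responding cell cannot be told apart. T cell markers were high in every library: Cd3e stood between 176 and 342 CPM and Trac, the receptor alpha constant region, between 1710 and 2670 CPM without TMM scaling. Rag2-deficient mice make no B cells of their own, but B cell marker RNA was present in all 11 libraries, with Pax5, a factor that defines B cells, at 45.5 to 282 CPM. Where those cells came from was not tested.

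No gene passed the threshold (false discovery rate 0.05) for GP added to MCC in CD69-lo cells. By edgeR, 0 of 17211 genes (0%) were called at 1 h, 0 at 6 h and 0 in the mean of both times. The times differed in how many genes had an unadjusted p under 0.05. At 1 h there were 123, of which 65 were higher (0.378% of all genes) and 58 lower (0.337%) with GP. At 6 h there were 971, of which 573 were higher (3.33%) and 398 lower (2.31%). In the mean of both times 306 were higher (1.78%) and 204 lower (1.19%), 510 in all. DESeq2 called 1 gene at 1 h, 4 at 6 h and 1 in the mean, and these are described with the genes found in single libraries below.

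The intervals show how precise the estimates of single genes were, without adjustment for the number of genes tested. Among 4289 genes with a mean of at least 50 CPM, the median half-width of the 95% interval of the log2 fold change was 0.33 at 1 h and 0.38 at 6 h, or 1.26-fold and 1.3-fold. At 1 h the whole interval lay within a 2-fold change in either direction for 97.6% of these genes, and at 6 h for 93.8%. Point estimates over 1.5-fold were found for 2 genes at 1 h, both higher with GP. At 6 h, 125 genes were higher and 20 lower by that measure. Estimates over 2-fold were found for 14 of the 4289 genes at 6 h and none was called, so differences of that size could be missed. The SEs of Nr4a1 and Cd69, given below, were well above the median SE of these genes, 0.167 at 1 h and 0.188 at 6 h.

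At 1 h, transcription factors that the TCR induces overlapped in level with and without GP, and the libraries of each treatment spread widely. Nr4a1, which encodes the nuclear receptor Nur77 and lies on mm10 chromosome 15 at 101253902 to 101274795, stood at 9879, 5030 and 4569 CPM in MCC and at 3502, 7954 and 7290 CPM in MCC+GP. Cd69 (chromosome 6, 129267324 to 129275375) stood at 1592, 822 and 947 CPM in MCC and at 733, 1370 and 1193 CPM in MCC+GP. In both genes the highest library was MCC replicate 1 and the lowest was MCC+GP replicate 1, so the groups overlapped. The log2 fold change was -0.06 ± 0.46 (SE) for Nr4a1 and -0.03 ± 0.44 for Cd69, with adjusted p = 1 for both.

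Effector genes gave the same picture at 1 h. Myc, the transcription factor that drives growth of activated T cells (chromosome 15, 61985341 to 61990361), stood at 475, 290 and 334 CPM in MCC and at 290, 378 and 420 CPM in MCC+GP. Tnf, which encodes an inflammatory cytokine that CD4 T cells release early, stood at 257, 193 and 214 CPM in MCC and at 78.8, 194 and 298 CPM in MCC+GP. For Tnf, MCC+GP libraries lay both above and below all MCC libraries. For Myc, the lowest MCC+GP library was level with the lowest MCC library, and the others lay below the highest MCC library. The log2 fold change of Myc was -0.01 ± 0.22 and its interval excluded changes of 1.5-fold or more in either direction, since it ran from -0.46 to 0.44. Of the 35 genes of the early TCR response list, 0 had libraries that did not overlap, against 2.94% of all genes with every MCC+GP library higher and 2.65% with every one lower.

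At 6 h the early TCR response genes stood higher with GP, in levels that no longer overlapped for most of those named here, although none passed the test. Nr4a1 stood at 1213 and 2176 CPM in MCC and at 2522, 4087 and 3305 CPM in MCC+GP. Cd69 stood at 358 and 479 CPM in MCC and at 598, 846 and 699 CPM in MCC+GP. Every MCC+GP library exceeded both MCC libraries for these genes, and MCC+GP replicate 1 was the closest to MCC. The log2 fold changes were 0.96 ± 0.53 for Nr4a1 (adjusted p = 0.896) and 0.77 ± 0.50 for Cd69 (adjusted p = 0.904).

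The EGR factors, which ERK signalling induces, followed the same order at 6 h. Egr2 stood at 178 and 228 CPM in MCC and at 304, 348 and 335 CPM in MCC+GP. Egr3 stood at 219 and 331 CPM in MCC and at 471, 526 and 569 CPM in MCC+GP. Egr1 differed least, with 1487 and 1121 CPM in MCC and 1633, 1824 and 1581 CPM in MCC+GP. All 3 genes had higher levels in each MCC+GP library than in either MCC library, and their log2 fold changes were 0.70 ± 0.51, 0.92 ± 0.46 and 0.36 ± 0.81 (adjusted p = 0.912, 0.874 and 0.978). Nr4a3, the third NR4A receptor, overlapped: it stood at 746 and 1340 CPM in MCC and at 1285, 2335 and 1899 CPM in MCC+GP, with MCC replicate 2 above MCC+GP replicate 1.

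Myc had the smallest p of the early response genes at 6 h. It stood at 165 and 274 CPM in MCC and at 333, 546 and 395 CPM in MCC+GP, with no overlap. The fold was 1.93 (log2 0.95 ± 0.26, interval 0.43 to 1.47, adjusted p = 0.798). Irf4, a factor whose level follows the strength of TCR signalling, stood at 297 and 357 CPM in MCC and at 419, 587 and 518 CPM in MCC+GP, again with no overlap, and its log2 fold change was 0.63 ± 0.26 (adjusted p = 0.874). For both genes the MCC+GP libraries stayed far below the CD69-hi cells of that time, where MCC libraries ran from 1310 to 1360 CPM for Myc and from 1910 to 2310 CPM for Irf4. They stood far above the NP libraries, at 24.9 to 43.4 and 60.2 to 95.3 CPM.

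**Figure D1:**
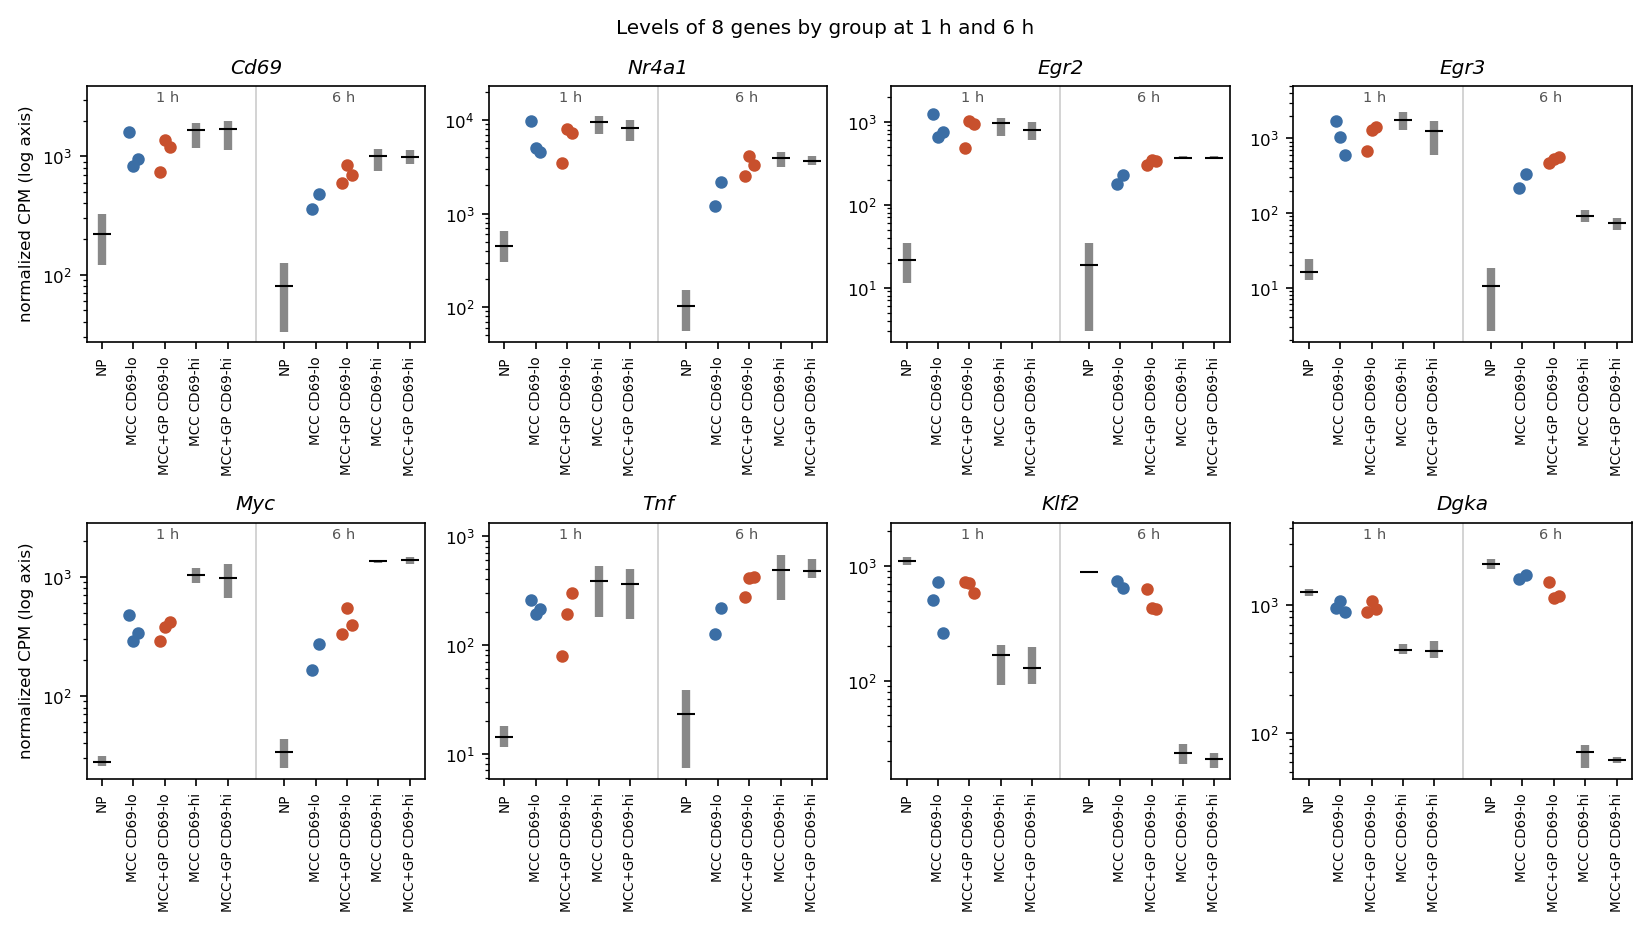
Normalized CPM (log axis) of 8 genes in cells without peptide (NP) and in CD69-lo and CD69-hi cells given MCC or MCC+GP, at 1 h and 6 h. Points are CD69-lo libraries (blue MCC, orange MCC+GP); grey bars run from the lowest to the highest library of the other groups, with a black line at the mean. The orange points mix with the blue ones at 1 h and lie above both blue points at 6 h for Cd69, Nr4a1, Egr2, Egr3, Myc and Tnf, and below both for Klf2 and Dgka.

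Across the early TCR response list, 19 of 35 members (54.3%) had every MCC+GP library above both MCC libraries at 6 h, beside 8.62% of all genes, and 0 had every one below, beside 12% of all genes. The median log2 fold change of the list was 0.43, against 0.01 over all genes, and 9 members (25.7%) had an unadjusted p under 0.05, all higher, beside 3.33% of all genes. Without MCC replicate 2, 23 members were higher and 7 (20%) lower without overlap, beside 19.5% and 25.4% of all genes. Besides the panel, Fosl2, a subunit of the AP-1 factor, stood at 350 and 510 CPM in MCC and at 533, 734 and 782 CPM in MCC+GP. The list was not uniform. Fos, which encodes another AP-1 subunit and is named here after its values were seen, stood at 547 and 250 CPM in MCC and at 282, 302 and 235 CPM in MCC+GP, and its partner Jun at 360 and 150 against 183, 172 and 192 CPM. Both overlapped, with MCC replicate 1 standing above all other libraries of 6 h.

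B cell and MHC class II RNA was also higher with GP at 6 h. The B cell list summed to 1455 and 943 plain CPM in MCC and to 2581, 1785 and 1855 in MCC+GP, without overlap. Of its 20 members, 10 (50%) had every MCC+GP library above both MCC libraries, beside 8.62% of all genes, the list's median log2 fold change was 0.85, and Pax5 was at 0 in none of the 11 libraries. MHC class II genes, which B cells and dendritic cells express, summed to 1532 and 996 in MCC and to 1940, 1673 and 2065 in MCC+GP, and 8 of 13 (61.5%) were higher without overlap. Myeloid and dendritic genes overlapped in sum (1817 and 1595 against 1645, 2471 and 2471), and 6 of 26 (23.1%) were higher in every MCC+GP library. The sums of NK and CD8 T cell genes (49.9 to 68.7 against 52.8 to 91.9) and of stroma, endothelium and erythroid genes (346 to 452 against 197 to 649) overlapped too. Without MCC replicate 1, 20 of 20 B cell genes were higher without overlap, beside 18.5% of all genes, and without MCC+GP replicate 2, 16 (beside 14.9%). Of the 26 myeloid genes, those higher without overlap numbered 15 without MCC+GP replicate 1, beside 20.3% of all genes. They numbered 10 without MCC replicate 1, beside 18.5%. At 1 h the B cell sum ran from 1381 to 4705 in MCC and from 1095 to 3248 in MCC+GP. With the B cell sum of each library as a covariate, the median log2 fold change of the early TCR response list at 6 h was 0.45, and 1 gene was called, Slc5a3, an inositol transporter (edgeR adjusted p = 0.0477). That fit used 1 slope for all 51 libraries. The B cell sums with and without GP did not overlap at 6 h, so B cell RNA and GP cannot be told apart there. The part of myeloid cells in the differences at 6 h was not tested.

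**Figure D2:**
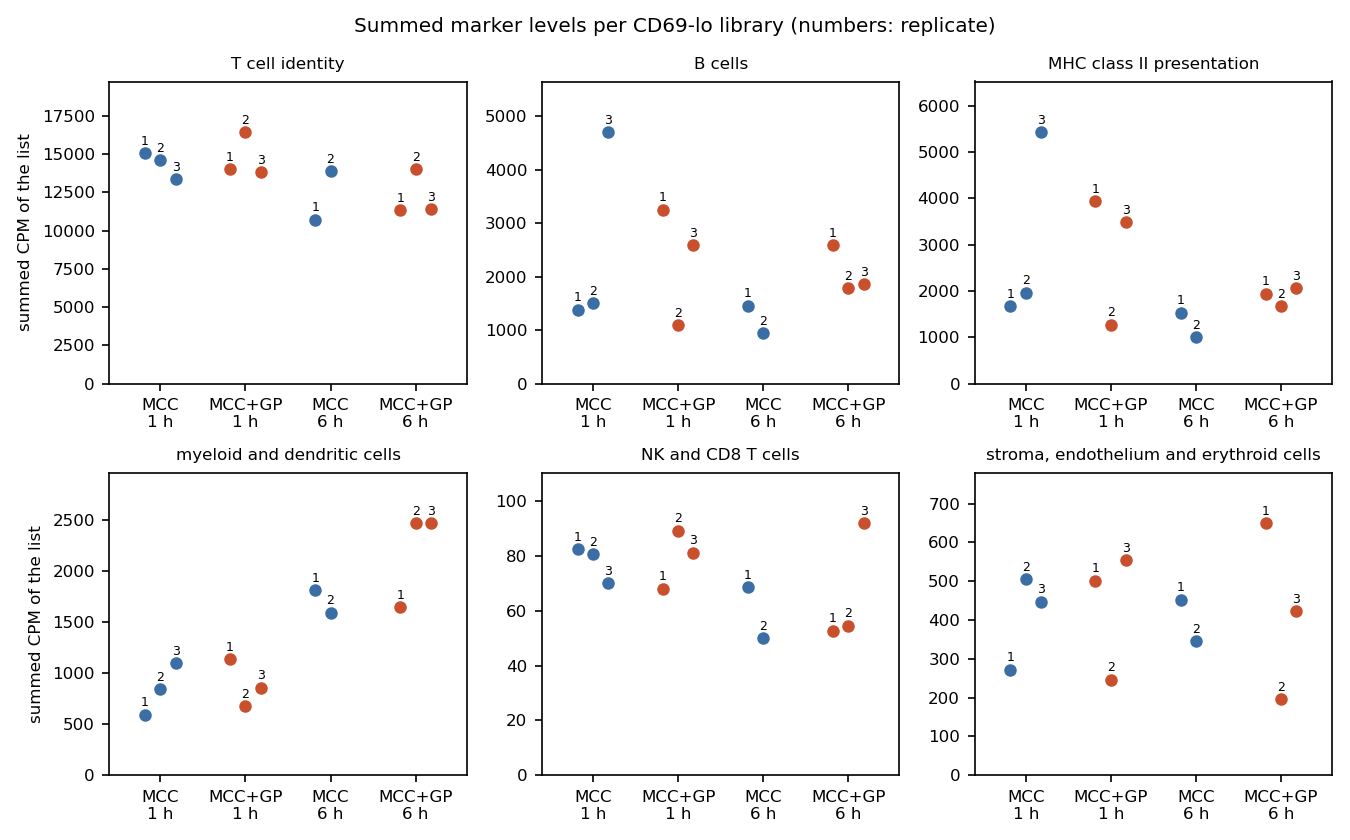
Summed CPM of marker lists for T cells and for 5 kinds of other cells or functions in each CD69-lo library (blue MCC, orange MCC+GP, numbers are replicates). T cell genes summed to 10720 to 16460 in every library. At 6 h the B cell sum was 943 to 1455 in MCC and 1785 to 2581 in MCC+GP, while at 1 h the groups overlapped in all 6 panels.

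Of the cytokine genes named here, Tnf alone was both well expressed and free of overlap at 6 h. Tnf stood at 126 and 219 CPM in MCC and at 275, 416 and 425 CPM in MCC+GP, without overlap and with a fold of 2.16 (log2 1.11 ± 0.49, adjusted p = 0.874). Il2, the growth factor of T cells, stood at 0 and 1.83 CPM in MCC and at 1.28, 7.13 and 4.93 CPM in MCC+GP, so that the groups overlapped. Tnfsf11, which encodes the cytokine RANKL, stood at 18.3 and 44 CPM in MCC and at 31.1, 125 and 61.7 CPM in MCC+GP, also with overlap. The chemokine Ccl4 stood at 2.8 and 5.33 CPM in MCC and at 5.13, 15.8 and 10 CPM in MCC+GP, with overlap at MCC+GP replicate 1. Of 26 cytokine and chemokine genes tested, 3 were higher (11.5%) and 2 lower (7.69%) without overlap, close to the 8.62% and 12% of all genes. Without MCC+GP replicate 1, 12 (46.2%) were higher, beside 20.3% of all genes, and without MCC replicate 2, 9 (34.6%), beside 19.5%. A smaller group overlaps less by construction, and in the genes named here these were the libraries nearest the other group. The log2 fold change of Tnf ran from 0.77 without MCC replicate 1 to 1.59 without MCC replicate 2.

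Of 23 surface receptors of activated cells, 4 (17.4%) were higher and 0 lower without overlap at 6 h, beside 8.62% and 12% of all genes. Without MCC+GP replicate 1, 17 (73.9%) were higher, beside 20.3% of all genes, and without MCC replicate 2, 13 (56.5%), beside 19.5%. A smaller group overlaps less by construction, and in the genes named next these were the libraries nearest the other group. Il2ra, the alpha chain of the interleukin-2 receptor, stood at 70.3 and 132 CPM in MCC and at 81.7, 305 and 212 CPM in MCC+GP (log2 0.97 ± 0.39, adjusted p = 0.874). Slamf1, a costimulatory receptor, stood at 52.9 and 113 CPM in MCC and at 96.8, 208 and 152 CPM in MCC+GP. Cd5, a receptor that dampens TCR signals and tracks self-reactivity, stood at 34.5 and 73.6 CPM in MCC and at 43.6, 133 and 90.1 CPM in MCC+GP. In all 3 genes, MCC replicate 2 exceeded MCC+GP replicate 1 but neither of the other MCC+GP libraries. With a library left out, the log2 fold change of Il2ra ran from 0.56 (without MCC+GP replicate 2) to 1.53 (without MCC replicate 2). That of Cd5 ran from 0.26 (without MCC replicate 1) to 1.38 (without MCC replicate 2). Btla, an inhibitory receptor, did not overlap: 76.6 and 80.5 CPM in MCC stood against 114, 126 and 142 CPM in MCC+GP (log2 0.70 ± 0.20, adjusted p = 0.798).

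Genes of naive, quiescent T cells stood lower with GP at 6 h. Klf2, the factor that keeps T cells resting and recirculating (chromosome 8, 72319062 to 72321654), stood at 733 and 643 CPM in MCC and at 625, 432 and 419 CPM in MCC+GP. S1pr1, the receptor through which T cells leave the lymph node and a target of Klf2, stood at 643 and 652 CPM in MCC and at 634, 447 and 432 CPM in MCC+GP. Il7r, the receptor for the survival cytokine interleukin-7, stood at 272 and 344 CPM in MCC and at 258, 224 and 208 CPM in MCC+GP. None of the 3 overlapped, but MCC+GP replicate 1 lay closest to MCC in each, as the values show. The log2 fold changes were -0.48 ± 0.32, -0.36 ± 0.22 and -0.42 ± 0.33 (adjusted p = 0.908, 0.896 and 0.92).

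Dgka, which encodes the kinase that removes diacylglycerol and so limits Ras activation, stood at 1602 and 1722 CPM in MCC and at 1504, 1140 and 1178 CPM in MCC+GP. Lef1, a factor of naive T cells, stood at 364 and 387 CPM in MCC and at 317, 232 and 231 CPM in MCC+GP. Neither overlapped, and the folds were 0.77 for Dgka and 0.69 for Lef1. Of the 31 genes of the naive and quiescence list, 13 (41.9%) had every MCC+GP library below both MCC libraries, beside 12% of all genes, and 1 had every one above. The median log2 fold change of the list was -0.26. Without MCC+GP replicate 1 the number lower was 22 of 31 (71%), beside 23.5% of all genes. At 1 h, 0 of 31 did not overlap and the median was 0.05.

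**Figure D3:**
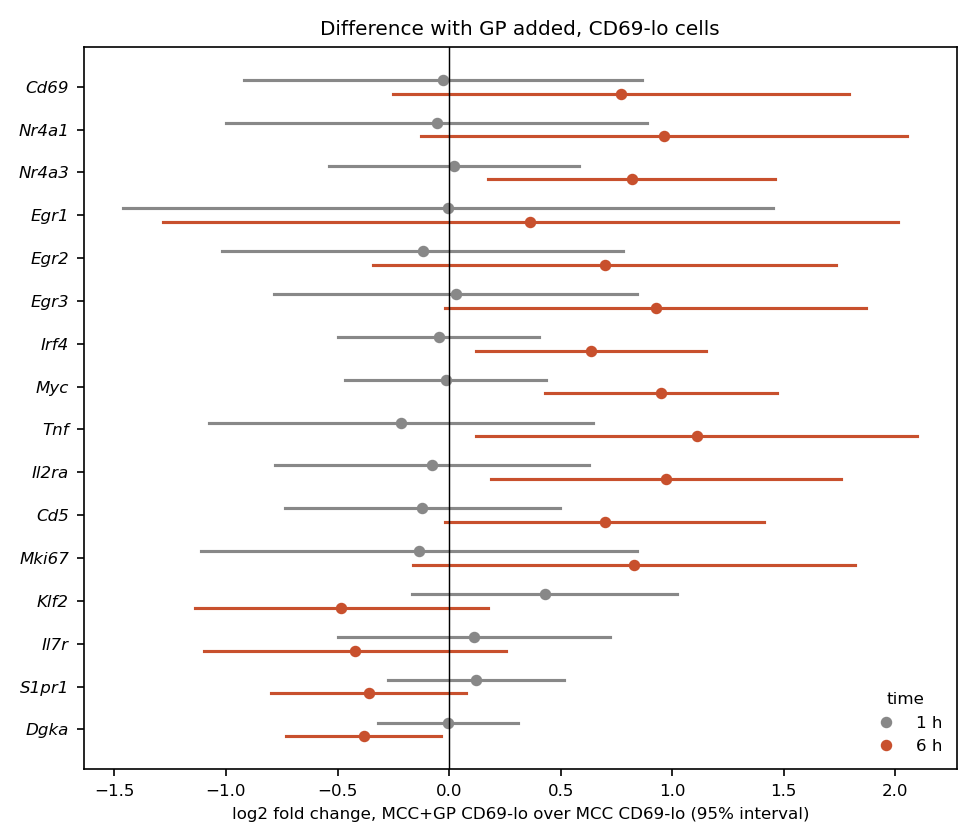
Log2 fold change of MCC+GP over MCC in CD69-lo cells for 16 genes with its 95% interval from the fit, at 1 h (grey) and 6 h (orange). At 1 h every interval includes 0. At 6 h the intervals of Nr4a3, Irf4, Myc, Tnf, Il2ra and Dgka exclude 0, with no adjusted p under the threshold.

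In the receptor complex, Cd3e, Cd3d and Cd3g, the signalling chains, overlapped at 6 h. Cd4, the coreceptor, did not: it stood at 405 and 414 CPM in MCC and at 366, 268 and 280 CPM in MCC+GP (log2 -0.42 ± 0.20, adjusted p = 0.874). The adaptor Grap2 stood at 475 and 433 CPM in MCC and at 385, 309 and 295 CPM in MCC+GP. The adaptor Lcp2, known as SLP-76, had the opposite order with overlap, at 226 and 345 CPM in MCC and 287, 509 and 422 CPM in MCC+GP. Of 34 genes for the TCR complex and proximal signalling, 9 were lower (26.5%, beside 12% of all genes) and 4 higher (11.8%, beside 8.62%) without overlap, and the median log2 fold change was -0.02. Without MCC replicate 2 the number higher was 14 (41.2%, beside 19.5% of all genes), and without MCC+GP replicate 1 it was 12 (35.3%, beside 20.3%).

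Among targets and regulators of NF-kB at 6 h, Bcl10, the adaptor that links the TCR to NF-kB, stood at 70.3 and 69.3 CPM in MCC and at 83.7, 127 and 114 CPM in MCC+GP, with a log2 fold change of 0.63 ± 0.17 (edgeR adjusted p = 0.798; DESeq2 adjusted p = 0.0453). Nfkb2, a subunit of the factor, stood at 479 and 514 CPM in MCC and at 546, 744 and 700 CPM in MCC+GP. Tnfaip8, which encodes an apoptosis regulator, stood at 41.6 and 53 CPM in MCC and at 53, 101 and 93.9 CPM in MCC+GP. The libraries of Bcl10 and Nfkb2 did not overlap, and those of Tnfaip8 met at MCC+GP replicate 1. In the list, 7 of 25 members (28%) were higher without overlap, beside 8.62% of all genes, 1 was lower (4%, beside 12%), and 24 had a log2 fold change above 0 (median 0.37).

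Biosynthetic genes were higher in 2 of the 3 MCC+GP libraries at 6 h. Psat1, an enzyme of serine synthesis and a target of ATF4, stood at 12.7 and 30.5 CPM in MCC and at 20.5, 70.4 and 43.7 CPM in MCC+GP. Slc1a5, a glutamine transporter, stood at 130 and 192 CPM in MCC and at 160, 363 and 294 CPM in MCC+GP. Both overlapped at replicate 1 of MCC+GP. In the list of amino acid uptake, ATF4 and one-carbon genes, 8 of 30 (26.7%) were higher without overlap, beside 8.62% of all genes, 11 (36.7%) had an unadjusted p under 0.05, all higher, beside 3.33%, and the median log2 fold change was 0.65. Ribosome biogenesis genes such as Nop58 (67.8 and 104 CPM in MCC, 87.4, 185 and 117 CPM in MCC+GP) had a median of 0.37, with 14 of 37 (37.8%) higher at an unadjusted p under 0.05 but 4 (10.8%) higher without overlap, which is near the share of all genes. Without MCC+GP replicate 1 the numbers without overlap were 23 (76.7%) and 29 (78.4%), beside 20.3% of all genes, and without MCC replicate 2 they were 19 (63.3%) and 20 (54.1%), beside 19.5%. Without MCC+GP replicate 2 the medians were 0.38 and 0.14.

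Mitochondrial and cytosolic chaperones had a similar order. Hspd1, the mitochondrial chaperonin, stood at 101 and 105 CPM in MCC and at 99.1, 218 and 227 CPM in MCC+GP. Its partner Hspe1 stood at 41.4 and 42.8 CPM in MCC and at 41.8, 83.4 and 97 CPM in MCC+GP. MCC+GP replicate 1 was level with MCC in both, and the other replicates lay well above. In the heat shock list 6 of 23 members (26.1%) were higher without overlap, beside 8.62% of all genes, 12 (52.2%) had an unadjusted p under 0.05, all higher, beside 3.33%, and the median log2 fold change was 0.47. Hspa1a, an inducible chaperone, was high in MCC+GP replicate 3 alone: it stood at 2.98 and 2.67 CPM in MCC and at 4.03, 8.99 and 247 CPM in MCC+GP.

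The cell cycle gene Mki67, a marker of proliferation, stood at 21.2 and 22.8 CPM in MCC and at 26.6, 39.4 and 51.3 CPM in MCC+GP. The list of 40 cell cycle genes had 5 higher (12.5%, beside 8.62% of all genes) and 3 lower (7.5%, beside 12%) without overlap. Without MCC replicate 2 it had 14 higher (35%, beside 19.5% of all genes). Tbx21, the factor of T helper 1 cells, stood at 7.83 and 11.5 CPM in MCC and at 17.2, 30.1 and 29.9 CPM in MCC+GP (log2 1.40 ± 0.52, adjusted p = 0.874). Of 13 T helper 1 genes, 1 was higher without overlap (7.69%, beside 8.62% of all genes). Without MCC+GP replicate 1 the number was 5, beside 20.3% of all genes, and without MCC replicate 1 it was 4, beside 18.5%. Of 44 type I interferon response genes, 2 were higher (4.55%, beside 8.62% of all genes) and 0 lower (beside 12%) without overlap, with a median of -0.02. These counts turned on single libraries: without MCC+GP replicate 1, 18 (40.9%) were lower, beside 23.5% of all genes, without MCC replicate 2, 11 (25%) were, beside 25.4%, and without MCC replicate 1, 9 (20.5%) were higher, beside 18.5%. The 39 cytosolic ribosomal protein genes differed by little but nearly all in 1 direction. Their log2 fold change was above 0 in 39 at 1 h and in 38 at 6 h, with medians of 0.14 at both times, while 0 were free of overlap and 0 had an unadjusted p under 0.05. Within plate passes, described below, 36 to 39 were above 0. The number higher without overlap at 6 h was 39 without MCC replicate 2, beside 19.5% of all genes, where a smaller group overlaps less by construction. The 6 h median was 0.42 without MCC replicate 2 and -0.08 without MCC replicate 1.

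**Figure D4:**
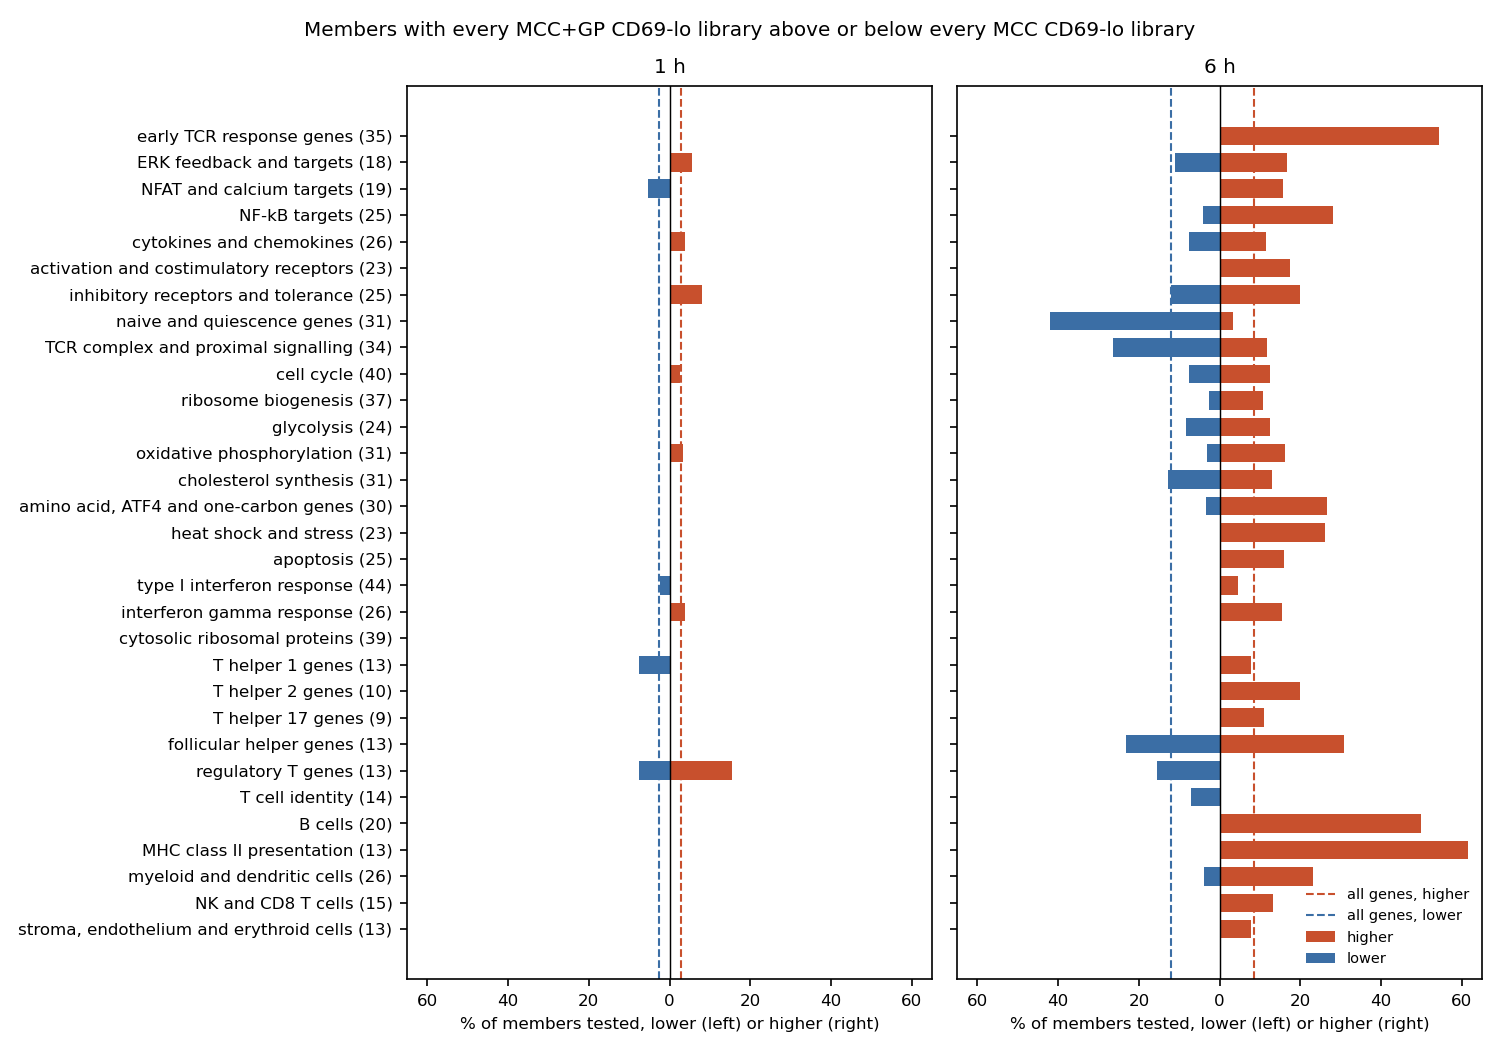
Share of each gene list (number of members tested in brackets) in which every MCC+GP CD69-lo library stood above (orange, right) or below (blue, left) every MCC CD69-lo library, at 1 h and 6 h. Dashed lines give the same shares over all genes, 2.94% and 2.65% at 1 h and 8.62% and 12% at 6 h. At 6 h the early TCR response list reaches 54.3% higher, B cells 50%, MHC class II 61.5% and naive and quiescence genes 41.9% lower.

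The genes with the smallest p at each time, of which none passed, were of mixed kinds. At 1 h they included Ino80b, a subunit of a chromatin remodeller, at 12.8, 14.6 and 4.92 CPM in MCC and 25.1, 18.8 and 18.7 CPM in MCC+GP, and Slc19a2, a thiamine transporter, at 6.15, 6.09 and 6.77 against 12.4, 10.6 and 11.8 CPM. Both were higher in each MCC+GP library at 1 h and overlapped at 6 h. At 6 h they included Srgn, which encodes the granule proteoglycan serglycin, at 362 and 510 CPM in MCC and 516, 897 and 780 CPM in MCC+GP. Heatr5a stood lower, at 287 and 370 CPM in MCC and 255, 199 and 194 CPM in MCC+GP (log2 -0.60 ± 0.17). In the mean of both times the smallest p belonged to Cenpf, a kinetochore protein, which had a log2 fold change of 2.51 ± 0.59 (adjusted p = 1) from levels of 0 to 0.83 CPM in MCC and 1.04 to 4.11 CPM in MCC+GP.

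Leaving out MCC+GP replicate 1 of 6 h changed the count of genes called at that time from 0 to 37, of which 33 were higher and 4 lower. This leaves 2 libraries in each group. Of the 37, 15 belonged to a list used here, as did 3.95% of all genes tested. Of the 33 higher, replicate 1 lay above the lower MCC library and below the highest MCC+GP library in 22; in others, such as Hspd1, it lay below both MCC libraries. Among them were Psat1 (2.62-fold, adjusted p = 0.0175), Hspd1 (2.2-fold, 0.0175), Tnfaip8 (2.09-fold, 0.0175), Rrp12, a ribosome biogenesis factor (2.26-fold, 0.0289), Slc1a5 (2.07-fold, 0.0303), Bcl10 (1.74-fold, 0.0303) and Atf3, a stress and activation factor (2.97-fold, 0.0375). Replicate 1 had the highest B cell sum of the 5 libraries of 6 h and 5308144 counts, against 3169914 and 5874039 in the other MCC+GP libraries. Without it the members higher without overlap were 25 of 35 early TCR response genes, 21 of 25 NF-kB targets and 18 of 23 heat shock genes, while the number over all genes went from 1484 to 3487 (20.3%). NF-kB targets higher without overlap numbered 11 without MCC replicate 1 and 12 without MCC replicate 2, and heat shock genes 9 and 12, beside 18.5% and 19.5% of all genes. Leaving out MCC replicate 1 gave 1 call at 6 h, Il3. The log2 fold change of Nr4a1 was 0.60 without MCC replicate 1 and 1.48 without MCC replicate 2, and that of Myc 0.63 and 1.39. Leaving out any other of the 11 libraries gave 0 calls at 1 h, at 6 h and in the mean.

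The filter on low counts also decided some calls at 6 h. With all 34923 genes kept, 8 were called, among them Myc (adjusted p = 0.00607), Psat1 (0.0138), Slamf1 (0.0397) and Hspd1 (0.0397), all higher with GP, and Slc16a10, an amino acid transporter (0.0116). The other 3 rested on single libraries. Il3, a cytokine of activated T cells, had 59 counts in MCC replicate 2 and 0 in the other 4 libraries of 6 h, and its edgeR adjusted p with the filter was 0.071. Penk, which encodes proenkephalin, had 195 counts in MCC+GP replicate 3 and at most 1 in the others, and Ltf, which encodes the neutrophil protein lactoferrin, had 49 in MCC replicate 2 and 0 in the others.

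The calls of DESeq2 at 6 h were Bcl10 and 3 others. Ifng, the main T helper 1 cytokine, had 17 counts in MCC replicate 2 and 0 in the other 4 libraries (DESeq2 adjusted p = 6.14e-09, edgeR 0.874). Gm12994 had 180 counts in MCC+GP replicate 1, 3 in replicate 3 and 0 elsewhere. Luc7l2, which encodes a splicing factor, was lower without overlap, at 855 and 850 CPM in MCC and 672, 667 and 618 CPM in MCC+GP (DESeq2 adjusted p = 0.0453). DESeq2's call at 1 h was Penk, with 2 counts in MCC replicate 2 and 0 in the other 5 libraries of that time, and its call in the mean was Ifng. Penk, Ltf, Gm12994, Luc7l2, Slc16a10 and Slc5a3 were named after their values were seen.

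No gene was shown by edgeR to differ in response between the times. For the difference at 6 h minus that at 1 h, edgeR called 0 genes (0%), with 480 at an unadjusted p under 0.05, and DESeq2 called 3 (Penk, Gm12994 and Ifng). The estimate for Myc was 0.97 ± 0.34 and for Cd69 0.80 ± 0.66 on the log2 scale, both with adjusted p = 1. The list medians of this difference were 0.37 for early TCR response genes and -0.29 for naive and quiescence genes, against 0.01 for all genes. MCC levels themselves were lower at 6 h for these early genes: the highest 6 h value of Nr4a1 in MCC, 2176 CPM, lay below its lowest 1 h value, 4569 CPM.

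The well codes in the titles run through the set of conditions several times, and each run is called a plate pass here. All 4 pairs of MCC and MCC+GP libraries of the same pass had positively correlated deviations from their group means (r = 0.246 to 0.753), but a pair from different passes reached 0.675, and with 2 MCC libraries at 6 h their deviations mirror each other. Values within a pass are therefore given as a description. At 6 h, MCC+GP stood above MCC in both passes for Myc (log2 difference 1.01 in pass 1 and 0.99 in pass 2, computed on CPM + 1), Cd69 (0.74 and 0.82) and Tnf (1.12 and 0.93). The early TCR response list had medians of 0.23 and 0.63, with 24 and 33 of 35 members above 0, and naive and quiescence genes had medians of -0.07 and -0.41. At 1 h the 2 passes disagreed in direction. The early TCR response median was -0.26 in pass 2 and 0.38 in pass 3, and that of naive and quiescence genes 0.21 and -0.21.

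B cell genes had the same signs within passes at 1 h as the early response genes. Their median was -0.47 in pass 2, with 0 of 20 above 0, and 0.92 in pass 3, with 20 of 20 above 0. At 6 h it was 0.83 in pass 1 and 0.85 in pass 2, with 20 of 20 above 0 in each. The part of B cell RNA in the early response genes of single passes was not tested.

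In CD69-hi cells, edgeR called 117 genes (0.68% of 17211) for GP added at 1 h, 0 (0%) at 6 h, with 168 there at an unadjusted p under 0.05, and 6 (0.0349%) in the mean. The 1 h libraries of that fraction were shallower, at 852129 to 3346959 counts in MCC and 930161 to 1105292 in MCC+GP, and all comparisons between the fractions rest on them. The early TCR response list had a median log2 fold change of -0.21 at 1 h and -0.05 at 6 h there, against 0.03 and 0.43 in CD69-lo cells. Whether the effect of GP differed between the fractions was tested in the mean of both times, over 11 CD69-lo and 12 CD69-hi libraries. By edgeR 0 genes (0%) were called and 1123 had an unadjusted p under 0.05. DESeq2 called Ighv1-69 and Elac1, named after their values were seen. The difference between fractions was 0.50 ± 0.23 on the log2 scale for Myc (adjusted p = 0.721), 0.89 ± 0.42 for Egr3 (0.744) and 0.65 ± 0.29 for Nr4a3 (0.705), so none was shown to be particular to CD69-lo cells.

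The levels of CD69-lo cells at 6 h differed from those of CD69-hi cells in ways given here without a test. Egr3 ran from 219 to 569 CPM in the 5 CD69-lo libraries and from 60 to 110 CPM in the 6 CD69-hi libraries, and Egr1 from 1121 to 1824 CPM against 361 to 598 CPM. Klf2 and S1pr1 stood at 419 CPM or more in CD69-lo and at 28.4 CPM or less in CD69-hi.

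GP without MCC was compared with NP over 10 libraries of the same times. Whether GP differed in effect on MCC-treated CD69-lo cells and on cells without agonist was tested in the mean of both times, and edgeR called 0 genes (0%), with 259 at an unadjusted p under 0.05. DESeq2 called 1, Ifng. The difference was 0.42 for Myc and 0.85 for Cd69 on the log2 scale, with adjusted p = 1 for both. In CD69-lo cells themselves the mean log2 fold change with GP was 0.47 for Myc and 0.37 for Cd69. The rest of the Cd69 difference lies in GP against NP, where Cd69 was lower with GP. For GP against NP, edgeR called 0 genes, with 159 at an unadjusted p under 0.05. The early TCR response list had a median log2 fold change of -0.10 there.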

How the data were processed

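Poly-adenylated RNA of sorted cells was sequenced as paired reads on a NovaSeq instrument, per the labels' protocols. The authors deposited a matrix of raw counts per gene. The submitters' processing notes name bcl2fastq 2.20, STAR 2.6.1c, HTSeq 0.9.1 and the build mm10. Whether counting used strand is not given in the sources used here. The matrix has 34923 features, 0 without a name, and the number of sample columns not used was 0. The deposited table of normalized values was not analysed here. Gene positions are those of RefSeq on GRCm38.p6.

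The tests were run with edgeR 4.0.16 and limma 3.58.1 in R 4.3.3: TMM scaling, filterByExpr by group (17211 genes), 1 coefficient per group over 51 libraries in 18 groups, robust quasi-likelihood F tests, two-sided, Benjamini-Hochberg adjustment and a false discovery rate of 0.05. SEs are the log2 fold change over the root of F, and intervals use the same fit. Scripts were tested on simulated data. Marker sums are plain CPM. A gene was said not to overlap when every library of a group lay on 1 side of every library of the other. No replicate pair was a repeat of 1 library: chi-square values over genes, divided by their degrees of freedom, ran from 7.73 to 21.7.

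The 11 members and the 31 gene lists (701 genes, 679 tested) were chosen with earlier results of these data known. Genes named are a panel of 18 (Cd69, Nr4a1, Nr4a3, Egr1, Egr2, Egr3, Myc, Irf4, Tnf, Ifng, Il2, Il2ra, Cd5, Klf2, Il7r, S1pr1, Dgka, Mki67), the 10 genes with the smallest p at each time and in their mean, because fewer than 10 passed, and up to 4 members per list with the smallest p in the mean; others are said to be named after their values were seen. Cd3e, Trac, Cd3d, Cd3g and Pax5 are defining markers.

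The titles end in well codes, and each run of these through the set of conditions was taken as a plate pass; the labels do not explain them. Deviations from the group means of same-pass libraries correlated across 4289 genes (r = 0.753 and 0.246 at 1 h, 0.534 and 0.552 at 6 h; other pairs -0.671 to 0.675; with 2 MCC libraries the 6 h values are not independent), so the pass was used as a block in an alternative. Other alternatives were RLE size factors, no filter, DESeq2 1.42.0, only the compared groups, the 24 h MCC+GP CD69-lo libraries left out, the B cell sum as a covariate, and each of the 11 libraries left out.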

Additional observations from a re-analysis of the deposited data

How the results depend on the processing

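The count of 0 genes called held for all 6 comparisons with RLE size factors, in a fit restricted to the compared groups and without the shallow 24 h libraries. With DESeq2 the counts were 1 at 1 h, 4 at 6 h, 1 in the mean of both times, 3 for 6 h minus 1 h, 2 for CD69-lo minus CD69-hi and 1 for CD69-lo minus GP alone. Without a filter on low counts they were 8 at 6 h and 1 in the mean (Cenpf), and with the B cell covariate 1 at 6 h. Leaving out each library in turn gave 0 to 0 genes at 1 h, in the mean, for 6 h minus 1 h and for CD69-lo minus GP alone, 0 to 37 at 6 h, and 0 to 1 for CD69-lo minus CD69-hi, where the 1 came without MCC+GP CD69-lo 6 h replicate 2. Apart from fewer samples, the cause was not tested.

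The fit with plate pass as a replicate block called 0 genes in all 6 comparisons, with 1169 genes at an unadjusted p under 0.05 at 6 h, against 971 without the block. A fit of the 11 libraries alone with that block, chosen after seeing the data, called 0 of 13465 genes, with 1331 at that level at 6 h. The block changed no call.

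Early TCR response genes higher without overlap at 6 h numbered 19 to 25 of 35 with a library left out, 20 on plain CPM and 20 with RLE, and their median log2 fold change kept its sign in every fit. Naive and quiescence genes lower without overlap numbered 14 to 22 of 31 with a library left out, 12 on plain CPM and 14 with RLE. These settings for counts without overlap were added after seeing the data. Over all genes at 6 h, 8.62% were higher and 12% lower without overlap when all libraries were kept. The share higher was 18.5% without MCC replicate 1, 19.5% without MCC replicate 2 and 20.3% without MCC+GP replicate 1. The share lower was 25.4% without MCC replicate 2 and 23.5% without MCC+GP replicate 1. The plain CPM and RLE counts are given without such shares, so they are not read as differences. Early response genes lower numbered 0 to 7 at 6 h (7 without MCC replicate 2). At 1 h the early response count higher was 0 to 5, and naive genes were 0 to 1 lower and 0 to 4 higher. A smaller group overlaps less by construction. The 1 h counts are given without the shares over all genes in the same settings, so they are not read as differences. Of the 18 panel genes, 15 changed sign in some alternative at 1 h and 2 in the mean (Il2 and Klf2). At 6 h the only departure was Ifng, whose log2 fold change was 0 without MCC replicate 2, the only library of that time with Ifng counts. Depth limits genes under 1 CPM: 3 counts are 0.477 to 0.946 CPM in the 11 libraries, and these floors and counts cover counting error only.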

Other observations

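The 24 h libraries that were left out gave values only. Cd69 stood at 328, 299 and 338 plain CPM in MCC CD69-lo and at 219, 723 and 322 in MCC+GP CD69-lo, where it rested on 52, 21 and 97 counts. Myc stood at 191, 225 and 133 plain CPM in MCC and at 312, 207 and 123 in MCC+GP, on 74, 6 and 37 counts. The groups overlapped for both genes.

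In MCC+GP CD69-lo replicate 3 of 6 h a few genes, hand-picked for this, stood apart from the other 4 libraries of that time. They were chosen after their values were seen and name no cell type. Gzmb, which encodes granzyme B, had 103 counts there and 0 to 3 in the others. Il13, a T helper 2 cytokine, had 61 counts against 0 to 9, and Ncr1, a receptor of NK cells, had 37 against 0 to 5. Klrb1c, another receptor of NK cells, was at 3.06 plain CPM there and at 0 to 0.383 in the others. Tigit, an inhibitory receptor, had 35 counts against 2 to 4. The CD8 coreceptor genes went the other way in that library: Cd8a was at 0 plain CPM, and Cd8b1 at 6.3 was the lowest of the 11 libraries.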
